A study of Mus musculus with 4 samples.

Results

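The epidermal differentiation complex on mouse chromosome 3, with the S100 genes at its 2 ends, held 40 of the 650 Gata6 peaks listed on that chromosome, and 0.330% of all listed peaks. Within the region, members were taken by position: a peak counts where its midpoint lies between 90.2 and 93.5 Mb of build mm9. The region itself was chosen with earlier results of these data known. The positions used for the genes are approximate mm9 landmarks that came with that rule, given to 10 kb: S100a8 at 90.47 Mb, Lor at 91.88 Mb, Ivl at 92.38 Mb, Flg at 93.08 Mb, and S100a11 with S100a10 between 93.3 and 93.4 Mb. No gene annotation of mm9 was used here, so a peak is described by the stretch between landmarks in which it lies, and is not assigned to a gene.

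The complex is a dense run of genes that keratinocytes switch on as they leave the basal layer and build the cornified envelope, the cross-linked protein shell of the outermost skin cells. Lor encodes loricrin and Ivl encodes involucrin, structural proteins of that shell, and Flg encodes filaggrin, which bundles keratin filaments. S100a8 and S100a9 encode the calcium-binding subunits of calprotectin, which rise in inflamed epidermis, while S100a10 and S100a11 encode S100 proteins that partner annexins. Gata6 is a zinc-finger transcription factor that binds DNA around the core letters GATA, and in skin it is known from the sebaceous duct and the upper hair follicle.

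The peaks come from primary mouse keratinocytes of dorsal skin, strain background C57BL6/CBA, with the transgene K14deltaNLef1 and with Gata6 overexpressed from a lentivirus. The keratin 14 promoter directs a truncated Lef1 to basal epidermal cells, and this transgene and the forced Gata6 were common to all libraries. Chromatin was precipitated with 2 different Gata6 antibodies (2 libraries, R&D Systems and Cell Signaling), and with a Flag antibody as negative control (1 library), beside 1 library of input DNA. The genotype label of the R&D Systems library reads K14deltaNLef1N and was taken as the same transgene. Cells grew on irradiated 3T3-J2 feeders, which are also of mouse origin, and how many feeder nuclei entered the chromatin is not stated. The data are 1 overlap list without values per library, so neither the spread between antibodies nor the read depth behind a peak is known, and no difference below has a replicate test. Intervals given with counts and shares are 95% intervals that cover counting error only.

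The order of genes was read from a RefSeq table of GRCm38.p6, a later build, whose coordinates were not used. In that order, 10 S100 genes, S100a1 to S100a7a, precede S100a8. Between S100a8 and Lor lie 6 protein-coding genes, among them S100a9, Pglyrp4 and Pglyrp3, the last pair coding for antibacterial peptidoglycan-recognition proteins. Between Lor and Ivl lie 16, of which 14 are small proline-rich Sprr genes, whose products cross-link the envelope. Between Ivl and Flg lie 28, of which 21 are late cornified envelope Lce genes, together with Crnn and Flg2. Between Flg and S100a11 lie 4, namely Hrnr, Rptn, Tchh and Tchhl1, all relatives of Flg in which an S100 domain is fused to a repeat region. S100a10 follows S100a11 directly.

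Promoter sequences of 6 of the 7 named genes were at hand from RefSeq (GRCm38.p6), all except S100a10. They were searched on both strands for the core GATA and for the longer forms AGATAA, also AGATAG, also TGATAA or else TGATAG, each of which contains the core. In the 250 bases before the start, 3 of the 6 held a longer form (S100a9, Ivl and S100a11), against 8718 of all 32851 promoters (26.5%). These 3 are shown because they hold it, and not because a peak was placed at them. Capitals mark the longer form, and TTATCA in Ivl is TGATAA on the other strand, as TTATCT in S100a11 is AGATAA. No sequence of build mm9 was used, so the letters under the peaks themselves are not shown.
S100a9 promoter, GRCm38.p6 chr3:90695722-90695971, minus strand: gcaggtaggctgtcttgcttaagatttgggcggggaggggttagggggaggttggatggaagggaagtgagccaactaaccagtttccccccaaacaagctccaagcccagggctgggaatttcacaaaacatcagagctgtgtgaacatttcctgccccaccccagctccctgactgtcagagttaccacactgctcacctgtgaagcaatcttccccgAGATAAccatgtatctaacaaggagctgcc
Ivl promoter, GRCm38.p6 chr3:92573736-92573985, minus strand: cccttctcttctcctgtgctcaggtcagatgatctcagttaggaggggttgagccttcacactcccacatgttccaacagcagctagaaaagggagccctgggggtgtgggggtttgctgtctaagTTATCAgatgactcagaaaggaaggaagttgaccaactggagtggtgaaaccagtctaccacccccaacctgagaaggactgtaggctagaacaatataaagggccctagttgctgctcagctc
S100a11 promoter, GRCm38.p6 chr3:93520246-93520495, plus strand: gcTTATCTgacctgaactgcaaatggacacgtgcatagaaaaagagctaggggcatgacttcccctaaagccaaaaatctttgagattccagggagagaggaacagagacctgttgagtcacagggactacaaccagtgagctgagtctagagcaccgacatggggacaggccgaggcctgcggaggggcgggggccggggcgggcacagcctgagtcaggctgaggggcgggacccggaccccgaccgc

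The longer form begins 30 bases before the start in S100a9, 124 bases before it in Ivl and 248 bases before it in S100a11. Lor and Flg held only the core, beginning in Lor at 133 and 127 bases and in Flg at 242 and 133 bases before the start, and S100a8 held neither in these 250 bases. The core alone is common: 5 of the 6 held it in these 250 bases, as did 53.6% of all promoters. Over the whole 300-base windows, from 250 bases before to 50 after the start, a longer form was in 29 of 61 promoters of the listed families (47.5%), against 9778 of all 32851 promoters (29.8%). By family the share was 9 of 14 for Sprr (64.3%), 11 of 20 for Lce (55.0%), 3 of 7 for the genes with a fused S100 domain (42.9%), 2 of 4 for the other envelope genes (50%) and 4 of 16 for S100 genes (25%). The listed families had 65 genes in the gene table but 61 promoters, so some genes were without a promoter here. The list called other envelope genes held Lor, Ivl, Lelp1, Smcp, Kprp, Crct1, Pglyrp3 and Pglyrp4, of which only 4 promoters were counted. Which 4 these were is not given here. The name is only that of the list, since not all its genes code for envelope proteins. Pglyrp3 and Pglyrp4, for instance, code for the antibacterial proteins named above. Genes within the Sprr family are related to each other, as are those within the Lce family, so promoters of the same family are not independent. Base composition differed as well. The median GC content was 46.7% in the listed families, against 52.7% over all promoters. By family it was 45.0% for Sprr, 47.0% for Lce, 45.0% for the genes with a fused S100 domain, 47.2% for the other envelope genes and 53.5% for S100. The S100 genes had the highest GC content and the lowest share. Sprr and the genes with a fused S100 domain had the same median GC content, with shares from 9 of 14 and 3 of 7 promoters. These counts are small. The part of base composition in the shares was not tested. These matches describe letters, and positions in GRCm38.p6 cannot be set beside the mm9 positions of the peaks.

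The complex was rich in listed peaks. It held 12.1 peaks per Mb (40 in 3.3 Mb), against 4.02 per Mb over the rest of chromosome 3 (610 peaks in 152 Mb from its first to its last peak), a ratio of 3.01 (95% interval 2.13 to 4.15). Against the other autosomes, with 5.07 peaks per Mb, the ratio was 2.39 (1.71 to 3.26). Of the 45 other complete windows of the same 3.3-Mb length on chromosome 3, which held a median of 9 peaks (range 0 to 43), 1 held at least 40 (2.22%). Of 704 such windows on all autosomes outside the complex, with a median of 14 peaks, 37 did (5.26%). The neighbouring 3.3 Mb were nearly as full, with 32 peaks before the complex and 31 after it, so the stretch lies within a wider peak-rich part of the chromosome. Peaks of neighbouring windows are not independent, and no test was made of these differences. Because earlier results of these data were known when the region was chosen, its rank among windows is a description only.

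Along the complex the peaks were far from even. In windows of 250 kb counted from 90.2 Mb, the numbers were 5, 1, 0, 0, 0, 0, 3, 4, 9, 0, 5, 4 and 9, and the last 50 kb held none. At least 1 peak was present in 8 of the 13 windows (61.5%, 35.5 to 82.3%), against 36.7% of 605 windows on the rest of the chromosome. At least 4 were present in 6 of 13 windows (46.2%, 23.2 to 70.9%), against 10.4% of the others. The fullest windows, from 92.2 to 92.45 Mb around the Ivl landmark and from 93.2 to 93.45 Mb around S100a11 and S100a10, held 9 each, a number reached by 5 of the 605 other windows (0.826%). Thus the complex combined some of the fuller windows of the chromosome with 5 windows that held no peak.

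**Figure D1:**
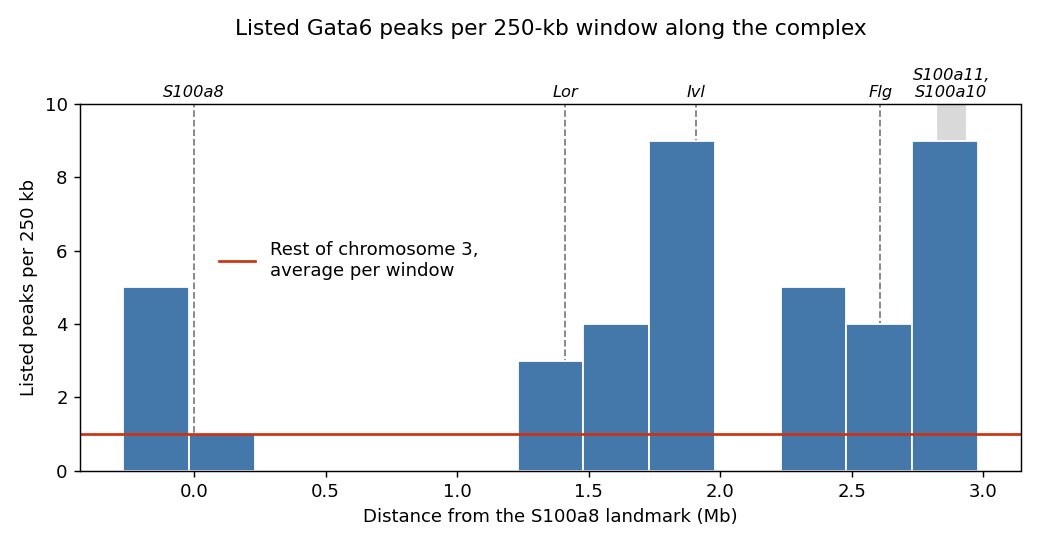
Bars give the listed peaks in each 250-kb window, placed by distance in Mb from the S100a8 landmark, with the other gene landmarks as dashed lines or a grey band. The red line is the average of the rest of chromosome 3. The windows around Ivl and around S100a11 and S100a10 reach 9, while 4 windows in a row between S100a8 and Lor are at 0.

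**Figure D2:**
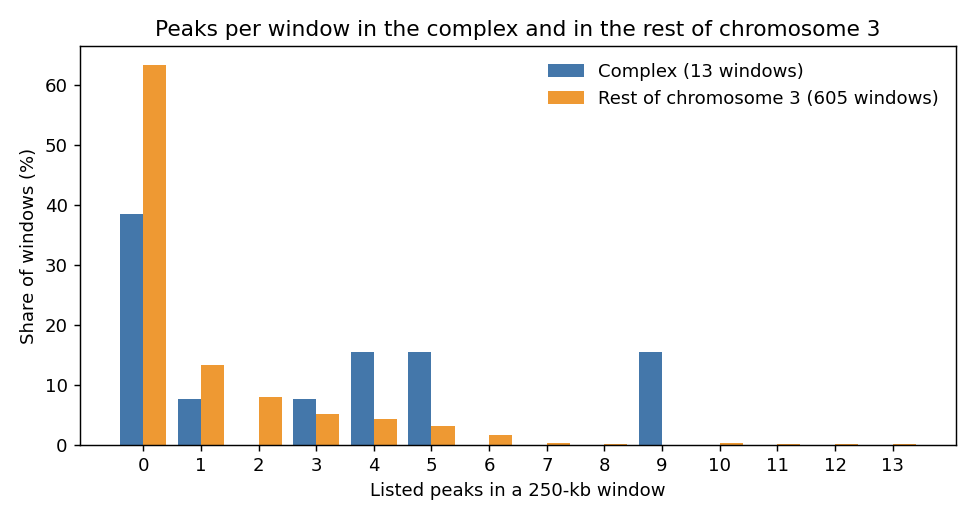
Horizontal axis, listed peaks in a 250-kb window; vertical axis, share of windows in percent, for the 13 windows of the complex and the 605 of the rest of chromosome 3. Windows with 4, 5 or 9 peaks take a larger share in the complex, and windows with 0 peaks take 38.5% there against 63.3% elsewhere.

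On the S100 side that opens the complex, 5 peaks lay between 90.2 Mb and the S100a8 landmark, 18.5 per Mb (6.01 to 43.2). They had name numbers 420, 461, 791, 284 and 339 in order of position. The name number is the whole number in each deposited peak name. What it counts is not stated, and on chromosome 3 it ran to 1694. None of these 5 was among the lowest 25% of the numbers of chromosome 3, and they included the narrowest interval of the complex, 29 bp at chr3:90390941-90390969. By gene order this side holds the cluster S100a1 to S100a7a and the genes before it.

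Within 50 kb of the S100a8 landmark there was a single peak. It lay at chr3:90499587-90499752, about 30 kb past the S100a8 landmark on the side where S100a9 follows, with the name number 182 and the largest width in the list, 166 bp. Whether it touches S100a9 was not determined. From there no peak midpoint was found for 1.34 Mb, until chr3:91837959-91838078, so 40.6% of the length of the complex was empty. Of the 649 distances between neighbouring peaks of chromosome 3, 26 were longer, the longest 7.49 Mb. The genes between S100a9 and Lor in order, Pglyrp4, S100a7l2 and Pglyrp3 among them, belong to the stretch from S100a8 to Lor, which held 2 peaks or 1.42 per Mb (0.172 to 5.12). This was the sparsest stretch between landmarks, and its interval includes the 4.02 per Mb of the rest of the chromosome.

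The name numbers say little about intervals that may have lain in that empty part without reaching the list. Sorted by number, the peaks of chromosome 3 fall into 67 ascending series, in each of which a higher number also lies at a higher position. Of the 48 series with a listed peak on both sides of the empty part, 34 had consecutive numbers across it, so that these series left no number between their nearest listed peaks. Breaks went with the height of the numbers: 6 to 7 was unbroken over 113 Mb, while 1494 to 1520 left 25 unlisted over 4.41 Mb. No other place on the chromosome was counted in this way, so 34 of 48 cannot be read as a trait of the empty part. The series ascend by construction, and whether unlisted numbers keep the same order of position was not tested. The other series left 100 unlisted numbers between their nearest listed peaks, which lie up to 45.3 Mb apart, and how many of these fall into the empty part is not known. Among the members, 5 series crossed it, and 3 of those were unbroken (182 to 183, 284 to 285 and 791 to 792).

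From Lor to Ivl, the stretch of the Sprr genes, 11 peaks lay in 0.5 Mb, 22.0 per Mb (10.98 to 39.4). This is 5.47 times the density of the rest of the chromosome. The nearest members on either side of the Lor landmark were chr3:91837959-91838078, about 40 kb below it, with number 98, and chr3:91928156-91928276, about 50 kb above it, with number 569. No peak lay within 25 kb of the landmark. Further on came chr3:91937301-91937425 (number 1060), then a pair 5.32 kb apart at chr3:91968576-91968741 and chr3:91973905-91974048, with numbers 792 and 120.

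Deeper in the Sprr stretch were chr3:92085234-92085360 and chr3:92144838-92144954, with numbers 285 and 793. They were followed by the lowest number of the complex, 51, at chr3:92221354-92221519, an interval of the largest width, 166 bp. Of the listed numbers of chromosome 3, 7.54% were as low or lower. Beyond it lay chr3:92244279-92244377 (number 697), chr3:92259141-92259290 (number 286) and chr3:92289932-92290076 (number 463). Which Sprr genes these peaks adjoin was not determined.

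Of the 4 genes with a landmark of their own, Ivl had the nearest peaks. The interval chr3:92377675-92377824, with number 84, and chr3:92382899-92383019, with number 1064, both lay within the rounding of the landmark, so on which side of Ivl each falls is not known and the counts of the stretches that meet there may shift by these 2. Within 25 kb of the landmark there were 3 peaks and within 50 kb there were 5, spread from 92377675 to 92425738. The others were chr3:92390747-92390849, chr3:92413840-92413933 and chr3:92425592-92425738, with numbers 571, 196 and 1065. Number 84 was the second lowest of the complex. S100a8, Lor and Flg had none within 25 kb.

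From Ivl to Flg, where the Lce genes lie, 9 peaks were listed in 0.7 Mb, 12.9 per Mb (5.88 to 24.4). They fell into 2 sets. The first 4 belonged to the group beside Ivl just described. After 297 kb without a peak came 5 between 92722209 and 92831145, with numbers 183, 1257, 797, 1520 and 250, and then another 284 kb without any. The set held both of the highest numbers of the complex, 1257 and 1520. The median number of the stretch, 797, was above the median of the complex, 422.5, and its median width was 116 bp against 130 bp for all members. Only 9 peaks stand behind these medians, and they are part of the members compared with. Number 1064 is among them, although its side of Ivl is not known. Low numbers were wider in earlier results on this list, so number and width may not be separate traits.

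Flg itself had no peak within 25 kb of its landmark and 1 within 50 kb, chr3:93115518-93115622, about 40 kb above, with number 422. Between Flg and the S100a11 range, where the genes Hrnr, Rptn, Tchh and Tchhl1 follow in order, 4 peaks were listed, 18.2 per Mb (4.95 to 46.6). After number 422 these were a chain of 3 within 15.4 kb, chr3:93150950-93151021, chr3:93161008-93161173 and chr3:93166272-93166417, with numbers 1066, 287 and 221 and widths of 72, 166 and 146 bp. A further 134 kb held none.

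The densest part was the range of S100a11 and S100a10. Its 0.1 Mb held 9 peaks, 90 per Mb (41.2 to 171), or 22.4 times the density of the rest of chromosome 3. Each lay within 20 kb of the next, from 93299936 to 93390509, which made it the longest such chain of the complex. Outside the complex, 11 of 23807 autosomal windows of 100 kb held as many (0.0462%), and none of the 1515 on chromosome 3 did. The first of the 9 lies at the very edge of the range, and 8 or more were held by 23 of those autosomal windows (0.0966%).

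In order of position the numbers of these 9 were 423, 464, 309, 109, 465, 377, 1068, 1069 and 167, so low and high numbers stood side by side. Number 109 was at chr3:93341142-93341252, with number 465 only 1.41 kb away at chr3:93342538-93342685. Number 167 was the last, at chr3:93390358-93390509. Numbers 1068 and 1069 belonged to intervals of 164 and 31 bp, 3.04 kb apart, at chr3:93373120-93373283 and chr3:93376231-93376261. Without this range the complex still held 31 peaks in 3.2 Mb, 9.69 per Mb, a ratio of 2.41 (1.62 to 3.45) to the rest of the chromosome. Beyond 93.4 Mb the complex held none.

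**Figure D3:**
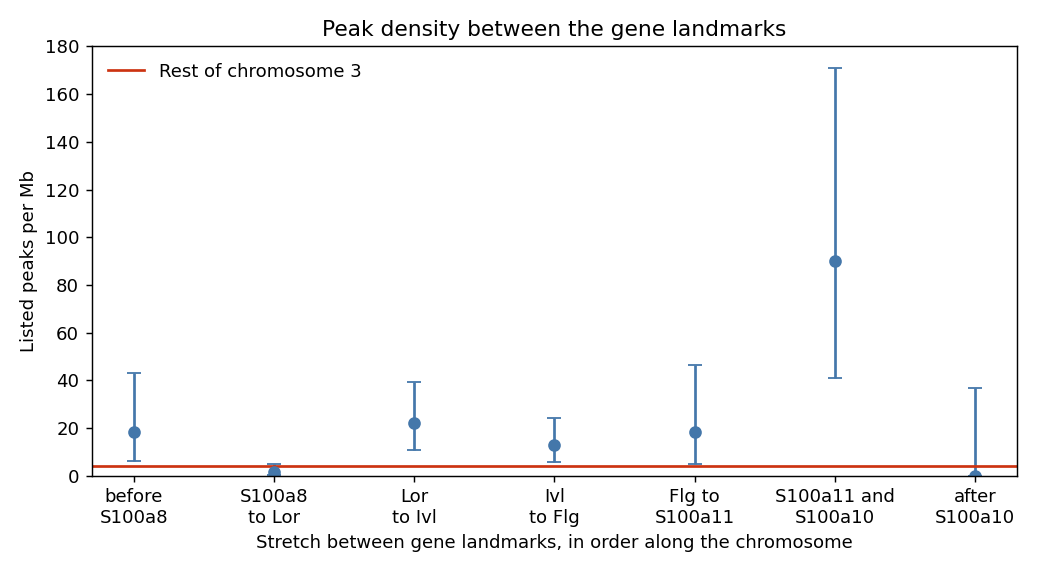
Points give listed peaks per Mb for the 7 stretches between gene landmarks, in order along the chromosome, and bars their exact 95% Poisson intervals. The red line is the rest of chromosome 3 at 4.02 per Mb. The range of S100a11 and S100a10 stands at 90 per Mb, while the stretch from S100a8 to Lor is at 1.42.

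Peaks lay close together, but mostly not within a few kb. The median distance between neighbouring members was 19.8 kb (39 distances), against 48.9 kb over chromosome 3. Neighbours within 20 kb made up 20 of the 39 distances (51.3%), against 30.5% of the 610 other distances of the chromosome. Every distance inside the chain of 9 peaks at S100a11 and S100a10 is among these 20, and the share without that chain is not given here. For neighbours within 5 kb the order was the other way, with 3 of 39 (7.69%) in the complex and 11.6% elsewhere, and within 1 kb there were none in the complex and 17 elsewhere. Of the 40 members, 18 lay within 50 kb of a landmark, but unevenly: 9 at the S100a11 and S100a10 range and 5 at Ivl. Lor had 2, and S100a8 and Flg had 1 each. The share of the complex's length within 50 kb of a landmark was not computed, so the count does not show closeness to landmarks in general.

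The name numbers of the members spanned most of the range of the chromosome. Their median was 422.5 (range 51 to 1520), against 407 (range 1 to 1694) for the other peaks of chromosome 3. Their median percentile was 51.2, against 49.8. Numbers of 100 or lower belonged to 3 of 40 members (7.5%, 2.58 to 19.9%), against 90 of 610 others (14.8%, 12.2 to 17.8%). Numbers above 1000 belonged to 8 members (20%, 10.5 to 34.8%), against 12.5% (10.07 to 15.3%) of the others. Both pairs of intervals overlap. The 3 members with the lowest numbers, 51, 84 and 98, lay between Lor and Ivl or just beside them. The stretch from Lor to Ivl held 11 of the 40 members (27.5%), with numbers up to 1060. The next lowest number, 109, lay in the range of S100a11 and S100a10.

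**Figure D4:**
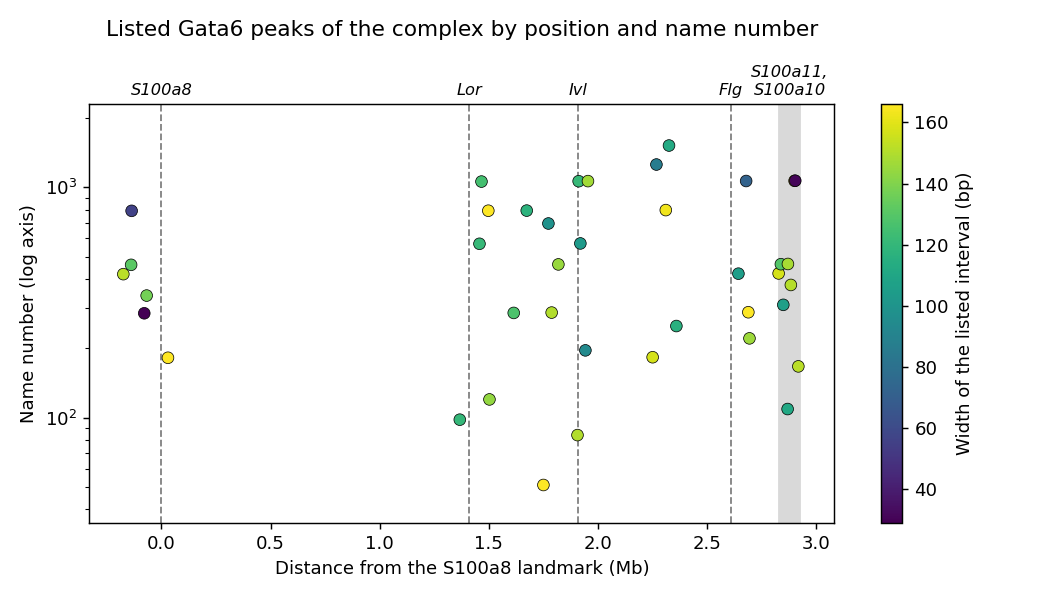
Each point is 1 of the 40 members, by distance from the S100a8 landmark in Mb and by name number on a log axis, and its colour gives the width of the listed interval in bp. The lowest numbers, 51, 84 and 98, stand between Lor and Ivl or just beside them, and between these landmarks the numbers also reach 1060. No point lies in the 1.34 Mb from the peak beside S100a8 to the first peak on the near side of Lor.

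The members were spread over 22 of the 67 ascending series, and 25 of them shared a series with another member. In 12 pairs the numbers were consecutive, at distances from 3.04 kb to 2.22 Mb, and the run 284, 285, 286 and 287 spanned the complex from its S100 side to beyond Flg. Shared series and consecutive pairs were not counted for other stretches of the chromosome, so these counts cannot be called particular to the complex. Of the 50 numbers from the first to the last member of each series, 40 were listed (80.0%, 67.0 to 88.8%). In the other windows of that length together, 86.2% were listed, and in the 12 of them with 20 or more peaks the share ranged from 62.0 to 100%. A window with few peaks has few such numbers by construction, so the fuller windows are the nearer comparison. The first and last of these numbers in each series are listed by definition, and so is the number of a series with a single member. These shares are therefore raised by construction, in the complex and in the other windows, and do not give the share of all numbers that reached the list. Of all numbers of chromosome 3 up to the highest, 1694, 38.4% were listed.

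The median width of the members was 130 bp (29 to 166 bp), against 142 bp for the rest of chromosome 3. Both ends of the range were present: 4 members were 83 bp wide or narrower (10%, 3.96 to 23.1%), against 9.18% of the others, and 4 had the largest width of 166 bp (10%, 3.96 to 23.1%), against 5.41%. The 4 widest lay in different parts, beside S100a8, between Lor and Ivl (2 intervals) and beyond Flg. What these widths stand for is not stated in the sources used here.

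At the bounds, the outermost members lay 95.0 kb inside the lower and 110 kb inside the upper bound. The first peaks outside were 187 kb below, with number 50, and 1142 kb above, with number 1526. Widening the complex by 0.5 Mb on each side gave 42 peaks, and the stretch from the first to the last landmark held 35.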

How the data were processed

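Per the submitters' processing notes, the pipeline named BWA, HOMER and build mm9, without versions or roles. How the overlap list was made is not stated there. The list deposited by the authors gives start, end and name for each of 12137 peaks. Its score column, as deposited, is 0 in every row and was not used. Read depth is unknown.

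Peaks were placed by midpoint and printed 1-based. Density was peaks over length, and the rest of chromosome 3 was taken from its first to its last peak. Intervals were exact Poisson for densities of stretches, Clopper-Pearson for ratios and Wilson for shares. Counting was tested on simulated data. Python 3.11.15, NumPy 2.4.6, pandas 2.3.3, SciPy 1.17.1 and matplotlib 3.10.9 were used. Gene order and promoters came from RefSeq (GRCm38.p6), and all 7 named genes were found in the gene table. Every peak inside the bounds was a member, and those beside landmarks, of extreme name number, at the bounds or in the fullest windows were described singly, with most others. The region, genes and lists were chosen with earlier results of these data known. Alternatives covered bounds, windows, peak filters and distances. The sequence under the peaks was not analysed here, for want of an mm9 genome.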

Additional observations from a re-analysis of the deposited data

How the results depend on the processing

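Of 23 alternative values, 20 stayed inside the interval of the value reported or within 1.5 times of it. Apart from the density ratio, this count does not follow the contrast with the rest of the chromosome. With name numbers up to the 90th percentile only, 79.2% (65.7 to 88.3%) were listed in the complex, against 90.3% in the other windows. The 9 of these windows with 20 or more peaks had shares from 71.1 to 100%, with a median of 92.9%. The density ratio to the rest of chromosome 3 was 3.01 and ranged from 2.39 to 3.10 over 8 alternatives. It was 2.42 with the bounds widened by 0.5 Mb on each side and 2.67 with only peaks whose name number was at or under the chromosome's median. Windows of 250 kb with a peak made up 61.5%, against 42.4% for windows of 100 kb and 66.7% for windows of 500 kb. This share rose with window size. For 100 and 500 kb the share on the rest of chromosome 3 is not given, so the contrast is known for 250 kb only. As set by their definition, pairs of neighbours numbered 3 within 5 kb, 0 within 1 kb and 20 within 20 kb. Their share turned with the distance. Within 5 kb it was 7.69% in the complex, against 11.6% elsewhere on chromosome 3. Within 20 kb, with the chain of 9 peaks at S100a11 and S100a10 included, it was 51.3%, against 30.5%. The median name number was at percentile 51.2, and as a percent of the highest number it was 24.9, since high numbers are sparsely listed. The alternatives without the S100a11 and S100a10 range and with only the 250 bases before the start were chosen after seeing the data. No paired analysis was possible because the list holds no values per library. For the same reason no library could be left out. Which sites reach the list depends on depth and threshold, neither of which is known here.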
